A study of Homo sapiens with 14 samples.

Results

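Iron-sulfur clusters are built in mitochondria and serve as cofactors of respiratory complexes, aconitase, lipoate synthase and DNA repair enzymes. A cysteine desulfurase complex provides sulfur, a scaffold protein holds the nascent cluster, a chaperone step releases it, and carrier proteins pass it to target enzymes. ZNF143 is a zinc finger transcription factor that binds promoters through the motifs SBS1 and SBS2, whereas CTCF is a zinc finger protein with a motif of its own that is known for organising chromatin loops.

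The 9 genes described here encode components of this mitochondrial assembly line. They were listed by name, as the desulfurase NFS1 and its partner LYRM4, the scaffold ISCU, the electron donor FDX2, the co-chaperone HSCB, the carrier GLRX5, and the late-acting factors ISCA1, ISCA2 and NFU1. They are 9 of 19970 protein-coding genes on chromosomes 1 to 22 and X. A peak was assigned to a gene as a promoter peak if its centre was at most 2 kb before or 1 kb after any annotated transcription start site (TSS) of that gene. Other peaks within the gene were taken as gene body peaks.

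The peaks came from ZNF143 chromatin immunoprecipitation sequencing with the Proteintech antibody in HEK293T cells, a human embryonic kidney line. In these cells ZNF143 carries an FKBP12 degron, so that dTAG-V1 directs it to degradation, and the labels name a single clone. The untreated group had 4 samples and the dTAG-V1 group had 4 samples, treated with 0.5 µM for 30 min, both with the same tagged ZNF143. The comparison addresses which sites the antibody detects with ZNF143 present and after its depletion. According to the paper, this antibody cross-reacts with CTCF, so that a peak of either list need not mark ZNF143. Each group is given as 1 list of peaks in hg38, with 20429 peaks for the untreated and 35287 for the dTAG-V1 samples. Both lists give only pooled values, so that no spread between replicates and no test could be given, and the read depth behind them is unknown. According to the methods, an untreated peak had to be found in every replicate, whereas a dTAG-V1 peak could come from any of them. If the deposited lists were made in this way, the looser rule by itself admits more dTAG-V1 peaks, and a peak in that list alone need not be a gain. Whether they were is not shown by the files. Nor do these lists measure how much ZNF143 was left after treatment. Score, fold enrichment and q-value are on the scale of each list. Places within a list, with rank 1 for the highest score, are therefore set side by side, and they also depend on the length of the list.

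Of the 9 genes, 7 had a promoter peak in the untreated list, where 40.5% of protein-coding genes had one. In the dTAG-V1 list, 8 of the 9 had a promoter peak, beside 48.2% of all. The 7 genes of the untreated list also had one in the dTAG-V1 list, and 37.2% of protein-coding genes had peaks in both. Each of the 7 untreated promoter peaks overlapped a dTAG-V1 peak by at least 1 bp, as did 84.2% of untreated promoter peaks of all genes. NFU1 had a promoter peak in the dTAG-V1 list alone, and NFS1 had none in either list.

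**Figure D1:**
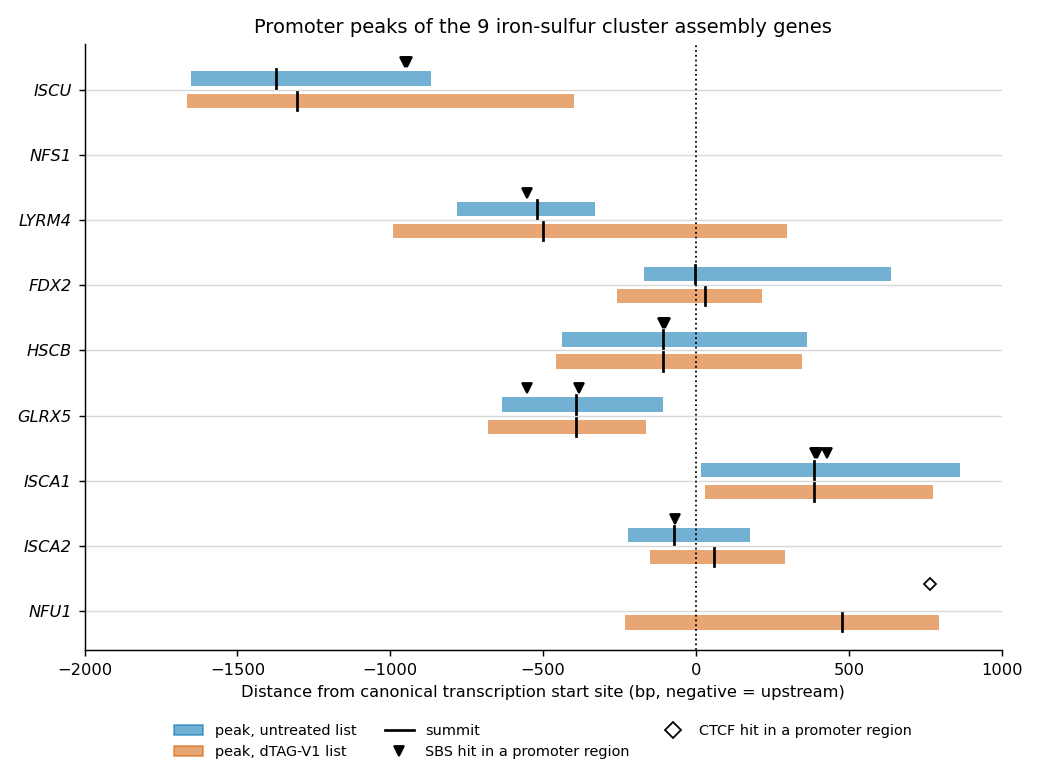
Promoter peaks of the 9 genes in the untreated (blue) and dTAG-V1 (orange) lists, by distance in bp from the canonical TSS in the direction of transcription. Black lines are summits, triangles are SBS hits and diamonds are CTCF hits; 7 genes have peaks in both lists, NFU1 in the dTAG-V1 list alone and NFS1 in neither.

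The DNA under the peaks was searched on both strands for SBS1, SBS2 and CTCF with matrices learned from peak summits, and a match at p of 1e-05 or less is called a hit. A hit is a match of letters and no measurement of binding. SBS1 and SBS2 share a core, so that both can mark the same site. Of the 8 promoter regions of the genes, with overlapping peaks of both lists merged, 6 had an SBS hit, and 35.7% of 11499 promoter regions of all protein-coding genes had one. The 8 regions belong to 8 genes. Counted by gene, 45.7% of the 10307 protein-coding genes with a promoter peak had an SBS hit in a promoter region. Member promoter peaks were wider, with median widths of 784 bp (untreated) and 776 bp (dTAG-V1), against 490 and 505 bp over all promoter peaks. A wider region has more positions for a hit, and the shares were not matched for width. A CTCF hit was present in 1 of the 8 regions, that of NFU1, and in 19.7% of all promoter regions, or for 23.7% when counted by gene. The sequences below are the strongest SBS hit of each gene, shown because 5 of the 6 are centred close to a peak summit. They are read from hg38, 5′ to 3′ on the strand of the hit, with the hit in capitals.

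HSCB, SBS2, chr22:28741924-28741952, minus strand: tctaaACTACAACTCCCAGGAGGCattga
ISCA1, SBS2, chr9:86282110-86282188, minus strand: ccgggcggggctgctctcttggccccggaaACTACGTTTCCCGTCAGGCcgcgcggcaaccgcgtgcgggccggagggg
ISCU, SBS2, chr12:108561606-108561684, plus strand: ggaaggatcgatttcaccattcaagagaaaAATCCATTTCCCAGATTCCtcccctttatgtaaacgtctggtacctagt
GLRX5, SBS1, chr14:95534653-95534682, plus strand: gaccccTTCCCGGCGTTCCGCGGAacgggc
ISCA2, SBS1, chr14:74493658-74493735, plus strand: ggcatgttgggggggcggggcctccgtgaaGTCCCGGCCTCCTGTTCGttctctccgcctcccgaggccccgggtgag
LYRM4, SBS1, chr6:5261489-5261518, minus strand: gggcctGCCCCAGAGGCCCCTACGcaggtc

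The hit of HSCB had a p of 5.47e-10 and took place 189 among the 4107 promoter regions with an SBS hit. ISCA1 followed at place 1095 with a p of 5.92e-08, and ISCU at place 1656 with 4.06e-07. The SBS1 hits were weaker, with GLRX5 at place 2093 (p of 1.10e-06), ISCA2 at 2533 (p of 2.33e-06) and LYRM4 at 2969 (p of 3.99e-06). These p values compare the letters with random DNA of the base composition of the genome and say nothing of the ChIP-seq signal. HSCB, ISCA1, GLRX5 and ISCA2 each had an SBS hit centred within 10 bp of the untreated summit. In LYRM4 the distance was 34.5 bp, whereas in ISCU it was 424 bp. Counting only hits within 100 bp of a summit gave 5 of 8 member regions, beside 28.4% of all promoter regions. The SBS matrices were learned around untreated summits, and the form of learning was chosen partly by how hits centred on summits. Closeness of a hit to a summit is thus partly built into the method, and no share over all promoter peaks is given at 10 bp. Learning used odd-numbered autosomes, and among the genes with an SBS hit only ISCA1, on chromosome 9, lies on one. Its hit could thus itself have entered the matrices, whereas those of the other genes could not.

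NFS1 is the cysteine desulfurase that releases sulfur for cluster synthesis (chr20:35668052-35699355, minus strand, 9 annotated TSSs). No peak of either list was centred in its TSS windows or its gene body. The nearest untreated peak lay 42.9 kb from the canonical TSS and the nearest dTAG-V1 peak 31.5 kb from it, both within RBM39. NFS1 starts 53 bp from ROMO1, which is transcribed in the opposite direction. In the same window around its canonical TSS, 1 SBS1 hit (p of 7.40e-06) was found at -1589.5 bp from the TSS, a negative position being upstream, with no peak over it. Such windows held an SBS hit for 70.6% of protein-coding genes and for 9 of the 9 genes described here, and a CTCF hit for 40.6% and for 3 of the 9. A hit in the window was therefore not particular to genes with a peak.

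LYRM4, also called ISD11, is the small protein that stabilises NFS1 (chr6:5103629-5260950, minus strand). Its untreated promoter peak (chr6:5261281-5261731) had a score of 856, a fold enrichment of 7.03 and rank 4124. In the dTAG-V1 list the peak (chr6:5260652-5261940) had a score of 1302, a fold enrichment of 8.18 and rank 2043. The peak was broader in the dTAG-V1 list and reached over the LYRM4 start. The summits were 18 bp apart, at -519 bp (untreated) and -501 bp (dTAG-V1) from the canonical TSS. Both were nearer to FARS2, the mitochondrial phenylalanyl-tRNA synthetase gene on the opposite strand, at 30 and 48 bp from a FARS2 TSS. A promoter peak here cannot be assigned to LYRM4 rather than FARS2.

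ISCU is the scaffold on which the cluster is built (chr12:108562582-108569368, plus strand). Its untreated promoter peak (chr12:108560945-108561728) had a score of 2432, a fold enrichment of 11.8 and rank 2813. The dTAG-V1 peak (chr12:108560932-108562197) had a score of 2024, a fold enrichment of 10.6 and rank 1759. The summits lay at -1375 and -1304 bp from the canonical ISCU TSS, farther out than in any other of the 9 genes. They were 48 and 108 bp from a TSS of SART3, a splicing factor gene that runs in the opposite direction and whose canonical TSS lies 1423 bp from that of ISCU. With centres required within 1 kb of a TSS, ISCU lost its promoter peak in both lists. The SBS site lay between the summit and the ISCU start, at -951 bp from the TSS.

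FDX2 is the mitochondrial ferredoxin that supplies electrons for cluster synthesis (chr19:10309916-10316015, minus strand). Its peak lay on the start site itself, with the untreated summit at -2 bp from the canonical TSS and the dTAG-V1 summit 30 bp downstream, in exon 1. The untreated peak (chr19:10315376-10316184) had a score of 198, a fold enrichment of 4.38 and rank 8893, near the middle of that list. The dTAG-V1 peak (chr19:10315798-10316273) had a score of 223, a fold enrichment of 4.68 and rank 8256. No SBS or CTCF hit was found in the region at p of 1e-05, and at p of 5e-05 there were hits of SBS1, SBS2 and CTCF. The sequence at the untreated summit, shown because of this absence, is given on the plus strand.

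FDX2, chr19:10316004-10316033, plus strand: aTCACGTGActcaccgactgaGCATGCGCc

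The capitals mark TCACGTGA, a word of E-box factors, and GCATGCGC, the word of NRF1, an activator of nuclear genes for mitochondrial proteins. Both words were picked after this sequence was seen, together with ACTTCCGG, a word of ETS factors, and were searched on both strands. All 3 words occurred in the FDX2 region, and none of them occurred in the other 7 promoter regions. Among all promoter regions, TCACGTGA was present in 1.76%, GCATGCGC in 4.30% and ACTTCCGG in 8.04%.

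HSCB is the co-chaperone that binds ISCU and recruits the HSPA9 chaperone for cluster transfer (chr22:28742039-28757515, plus strand). It had the highest score of the 9 genes in both lists. The untreated peak (chr22:28741601-28742401) had a score of 68685, a fold enrichment of 33.8 and rank 457, in the top 2.24% of that list. The dTAG-V1 peak (chr22:28741582-28742386) had a score of 30746, a fold enrichment of 30.2 and rank 296, in the top 0.839%. The summit was at the same base in both lists, at -108 bp from HSCB and 93 bp from a TSS of CHEK2, the checkpoint kinase gene on the opposite strand. The SBS2 hit printed above was centred 7 bp from it, and an overlapping SBS1 hit (p of 7.81e-07) was centred 0.5 bp from it.

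GLRX5 is the glutaredoxin that receives the cluster after its release (chr14:95533503-95544724, plus strand). The untreated peak (chr14:95534416-95534943) had a score of 30765, a fold enrichment of 31.9 and rank 1068. The dTAG-V1 peak (chr14:95534369-95534887) had a score of 5985, a fold enrichment of 18.3 and rank 1202. Both summits fell on the same base, at -392 bp from the canonical TSS and 6 bp from a TSS of the non-coding gene SNHG10 on the opposite strand. The window of SCARNA13, a small RNA gene on that strand, also held the peak centres. The SBS1 hit printed above was centred 9.5 bp from the summits. A CTCF hit (p of 9.45e-08) lay at -49.5 bp from the canonical TSS, outside the peaks of both lists.

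**Figure D2:**
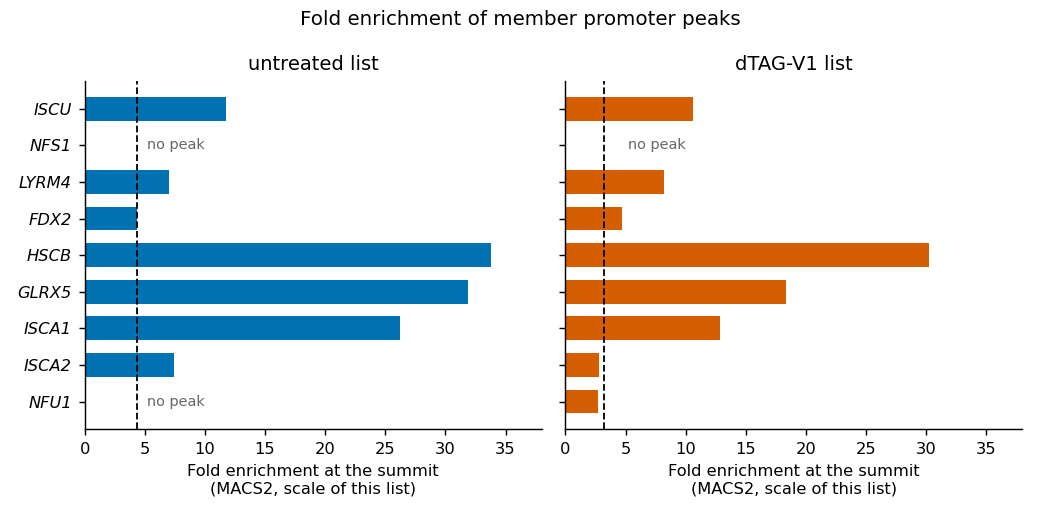
Fold enrichment at the summit of each member's promoter peak in the untreated list (left) and the dTAG-V1 list (right), each on its own scale. The dashed line is the median over all promoter peaks, 4.35 and 3.24; HSCB, GLRX5 and ISCA1 have the 3 highest bars in both panels, and ISCA2 and NFU1 lie below the dashed line in the dTAG-V1 panel.

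ISCA1, ISCA2 and NFU1 act late, in the formation of 4Fe-4S clusters and their delivery to enzymes such as lipoate synthase. The ISCA1 untreated peak (chr9:86281674-86282521) had a score of 19200, a fold enrichment of 26.3 and rank 1355. Its dTAG-V1 peak (chr9:86281762-86282508) had a score of 2679, a fold enrichment of 12.8 and rank 1603. The summits were 2 bp apart, in intron 1 of the canonical transcript at 387 and 385 bp downstream of its TSS, and 43 and 45 bp from another annotated TSS of ISCA1. The SBS2 hit was centred 2 bp from the untreated and 4 bp from the dTAG-V1 summit. ISCA1 was the only gene of the 9 with peaks in both lists and no other gene's TSS window over them.

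ISCA2, the partner of ISCA1, had an untreated peak (chr14:74493542-74493942) with a score of 814, a fold enrichment of 7.46 and rank 4202. Its dTAG-V1 peak (chr14:74493615-74494055) had a score of 92, a fold enrichment of 2.83 and rank 20750. ISCA2 was thus in the top 20.6% of the untreated list and in the top 58.8% of the dTAG-V1 list. The summit moved by 130 bp, from -72 bp to 58 bp from the canonical TSS, in exon 1. The SBS1 hit was centred 3.5 bp from the untreated summit and 126.5 bp from the dTAG-V1 summit. The window of NPC2, a lysosomal cholesterol carrier gene on the opposite strand, also held both peak centres.

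NFU1, the carrier that hands 4Fe-4S clusters to lipoate synthase, had a dTAG-V1 peak (chr2:69436640-69437668) with a score of 55 and a fold enrichment of 2.71. It held rank 27629 of that list, in the top 78.3%, with a −log10 q of 5.56. The summit was in intron 1, 477 bp downstream of the canonical TSS. The nearest untreated peak was 207 kb from that TSS, in AAK1. The CTCF hit of the region, shown as the only one in a promoter region of the 9 genes, had a p of 6.84e-06 and was centred 287.5 bp from the summit.

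NFU1, CTCF, chr2:69436634-69436707, plus strand: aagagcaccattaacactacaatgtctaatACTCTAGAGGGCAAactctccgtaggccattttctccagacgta

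By rank in the untreated list, the order of the genes was HSCB, GLRX5, ISCA1, ISCU, LYRM4, ISCA2 and FDX2. In the dTAG-V1 list it was HSCB, GLRX5, ISCA1, ISCU, LYRM4, FDX2, ISCA2 and NFU1. ISCA2 and FDX2 thus changed places, and the first 5 genes had the same order. Without replicate values, it is not known which neighbours in these orders differ beyond the spread between samples. The 7 untreated member peaks had a median rank of 2813 and a median fold enrichment of 11.8, and the 7701 promoter peaks of all genes had 7693 and 4.35. The 8 dTAG-V1 member peaks had a median rank of 1901 and a median fold enrichment of 9.39, beside 16515 and 3.24 over 10295 promoter peaks.

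As a share of its list, the place of the peak was higher in the dTAG-V1 list for 6 of the 7 genes with peaks in both, and for 73.0% of the 6484 shared promoter peaks of all genes. By rank it was higher for 4 of the 7, namely HSCB, ISCU, LYRM4 and FDX2, and for 34.9% of the shared peaks. ISCU went from the top 13.8% to the top 4.98%, LYRM4 from 20.2% to 5.79% and FDX2 from 43.5% to 23.4%. GLRX5 (5.23% and 3.41%) and ISCA1 (6.63% and 4.54%) had closer places. ISCA2 had a lower place in the dTAG-V1 list by both measures, and GLRX5 and ISCA1 by rank. Between lists the summit moved by 0 bp in HSCB and GLRX5, 2 bp in ISCA1, 18 bp in LYRM4, 32 bp in FDX2, 71 bp in ISCU and 130 bp in ISCA2. The median shift over the shared promoter peaks was 27 bp. The 3 genes with the highest ranks also had the smallest shifts. How shift goes with rank over all shared promoter peaks was not summarised, so this is not shown to be particular to the members.

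**Figure D3:**
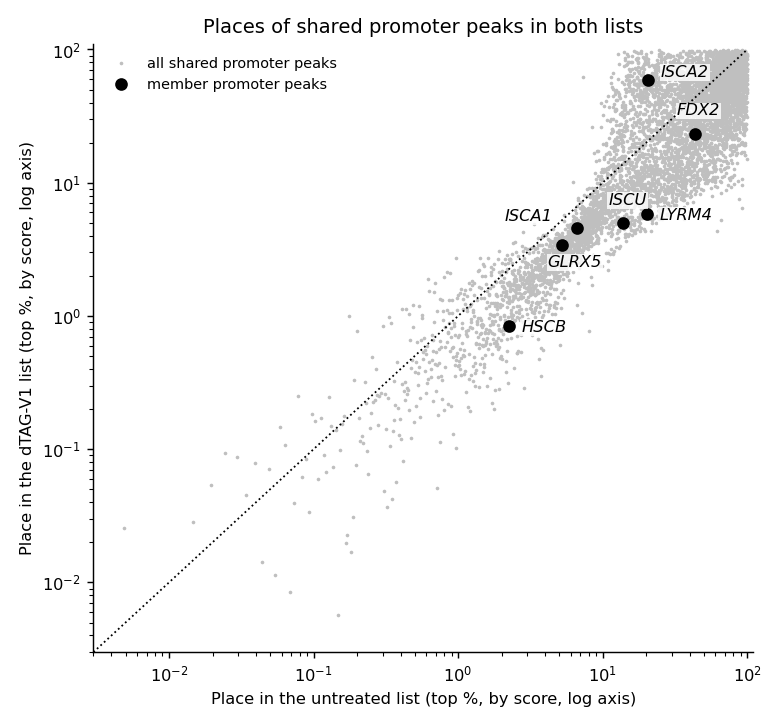
Place of each shared promoter peak in the untreated list (horizontal) and the dTAG-V1 list (vertical), as the top percent by score on log axes; grey points are the 6484 shared promoter peaks, black points the 7 member peaks. ISCA2 is the only member above the dotted line of equal top percent, in lists of unequal length.

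For 6 of the 8 genes with a promoter peak in either list, the peak was centred in the TSS window of another gene as well. Of the 10307 protein-coding genes with a promoter peak in either list, 51.9% had such a peak. On the opposite strand these were SART3 for ISCU, FARS2 for LYRM4, CHEK2 for HSCB, SNHG10 and SCARNA13 for GLRX5, and NPC2 for ISCA2. The canonical TSSs of the partners were 219 bp apart for HSCB and CHEK2, 408 bp for GLRX5 and SNHG10, 460 bp for ISCA2 and NPC2, and 563 bp for LYRM4 and FARS2. FDX2 shared its peak with a protein-coding gene model on the same strand that has no symbol in the annotation. At these promoters the signal of both genes cannot be told apart.

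Gene body peaks were found in LYRM4 alone, all with summits in intron 2. LYRM4 is the longest of the 9 genes, at 157322 bp against at most 41516 bp for the others. The untreated list had 2 and the dTAG-V1 list had 4 of them. Gene body peaks were present in 18.6% (untreated) and 30.6% (dTAG-V1) of protein-coding genes, and in 50.6% and 71.3% of those of 100 kb or more. The peak with the highest score in the dTAG-V1 list (chr6:5143611-5144057) had a score of 510, a fold enrichment of 6.49 and rank 3345. Its untreated counterpart (chr6:5143756-5144040) had a score of 87, a −log10 q of 8.72 and rank 14138. The other shared site had a score of 63 and rank 16400 in the untreated list (chr6:5205951-5206273), and a score of 38 and rank 32084 in the dTAG-V1 list (chr6:5206070-5206534). Peaks of the dTAG-V1 list alone were chr6:5115024-5115467, with a score of 152 and rank 13209, and chr6:5214869-5215386, with a score of 117 and rank 17083. The CTCF matrix was learned within 50 bp of dTAG-V1 summits. On the chromosomes not used for learning, 3213 CTCF hits were centred within 50 bp around 16319 dTAG-V1 summits, and 789 around 9344 untreated summits. The CTCF hits of the intron 2 sites are shown because they were centred within 30 bp of the summits.

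LYRM4 intron 2, CTCF, chr6:5115284-5115357, minus strand: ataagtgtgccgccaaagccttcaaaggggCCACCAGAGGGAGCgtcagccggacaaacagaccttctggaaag
LYRM4 intron 2, CTCF, chr6:5143773-5143846, plus strand: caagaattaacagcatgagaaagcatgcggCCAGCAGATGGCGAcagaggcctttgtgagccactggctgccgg

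The first hit (p of 1.06e-07) was centred 19.5 bp from the summit of a peak in the dTAG-V1 list alone. The second (p of 3.24e-07) was centred 29.5 bp from the untreated and 11.5 bp from the dTAG-V1 summit of the shared site. At the other shared site the dTAG-V1 peak held an SBS1 hit (p of 5.95e-06), at 147.5 bp from the untreated and 50.5 bp from the dTAG-V1 summit. This hit lay outside the untreated peak. The fourth site held neither motif. CTCF occupancy at these sites was not analysed here, and whether CTCF has a part in the antibody signal there was not tested.

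**Figure D4:**
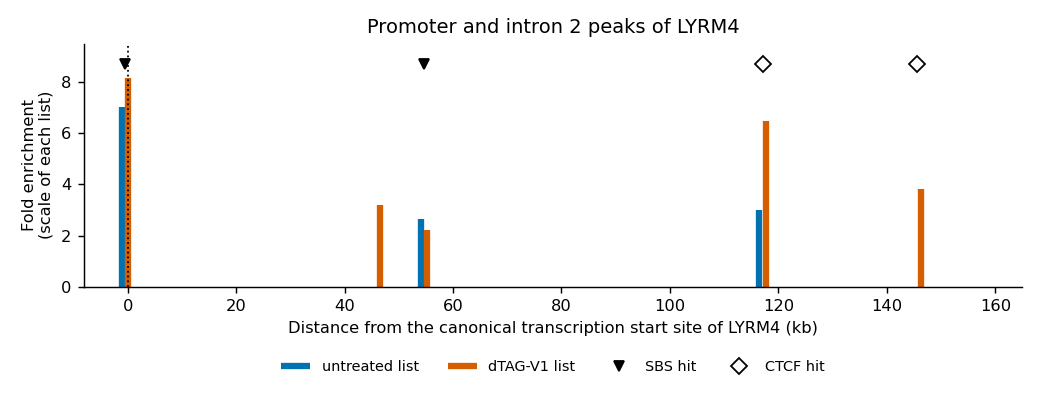
Peaks in and near LYRM4 by distance in kb from its canonical TSS, with the height of a bar as the fold enrichment on the scale of its list; bars of the untreated (blue) and dTAG-V1 (orange) lists are set side by side. SBS hits (triangles) mark the promoter and the second intron 2 site from the start, and CTCF hits (diamonds) mark both sites farthest into intron 2.

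A list of 33 other genes of iron-sulfur cluster biology was examined in the same way. Of these, 24 had a promoter peak in the untreated list, 25 in the dTAG-V1 list and 24 in both, beside the shares of 40.5%, 48.2% and 37.2% given above for all genes. Of the 25 genes of the list with a promoter peak in either list, 12 had an SBS hit and 7 a CTCF hit in a promoter region, beside 45.7% and 23.7% of all protein-coding genes with a promoter peak. By role, the untreated list held peaks at 6 of 8 genes of the early mitochondrial steps, 5 of 6 of the late steps, 2 of 2 of export, 7 of 11 of cytosolic assembly and 4 of 6 iron-sulfur proteins of the iron response and outer membrane. The dTAG-V1 list held the same numbers, except for 8 of 11 in cytosolic assembly.

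BOLA1, a mitochondrial partner of GLRX5, had the highest rank of the 33 genes, 75 in the untreated and 76 in the dTAG-V1 list. CIAO2A, which targets clusters to ACO1, the iron regulatory protein, followed with ranks 272 and 220. CIAO1, the WD40 protein of the cytosolic targeting complex, had ranks 947 and 567. HSCB, at 457 and 296, lay between CIAO2A and CIAO1 in both lists. BOLA1 had 3 promoter peaks in each list, and the rank is that of the highest. Whether promoter peaks of the 33 genes also lay in the windows of other genes was not examined. CIAPIN1, an electron carrier of the cytosolic pathway, had a promoter peak in the dTAG-V1 list alone, at rank 20890. The genes with no promoter peak in either list were FDX1, SLC25A37, BOLA3, CIAO3, NDOR1, BOLA2, ACO1 and CISD3. BOLA2 has a near-identical copy in the genome, and the authors kept uniquely mapped reads, so that its lack of a peak is uncertain. FDX1, the ferredoxin paralogue of FDX2, and BOLA3, a partner of NFU1, were among the genes without peaks, as was NFS1 among the 9.

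GFER was counted in both lists, but with different peaks, and was singled out after its values were seen. This sulfhydryl oxidase gene had an untreated peak at rank 1938 with a fold enrichment of 22.4, which no dTAG-V1 peak overlapped. Its dTAG-V1 promoter peak was another one, at rank 28448 with a fold enrichment of 2.57. Of the 24 genes of the list with an untreated promoter peak, 22 had a dTAG-V1 peak over their highest-ranking one, and the others were GFER and IREB2. The share over all protein-coding genes with an untreated promoter peak was 86.6%.

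**Figure D5:**
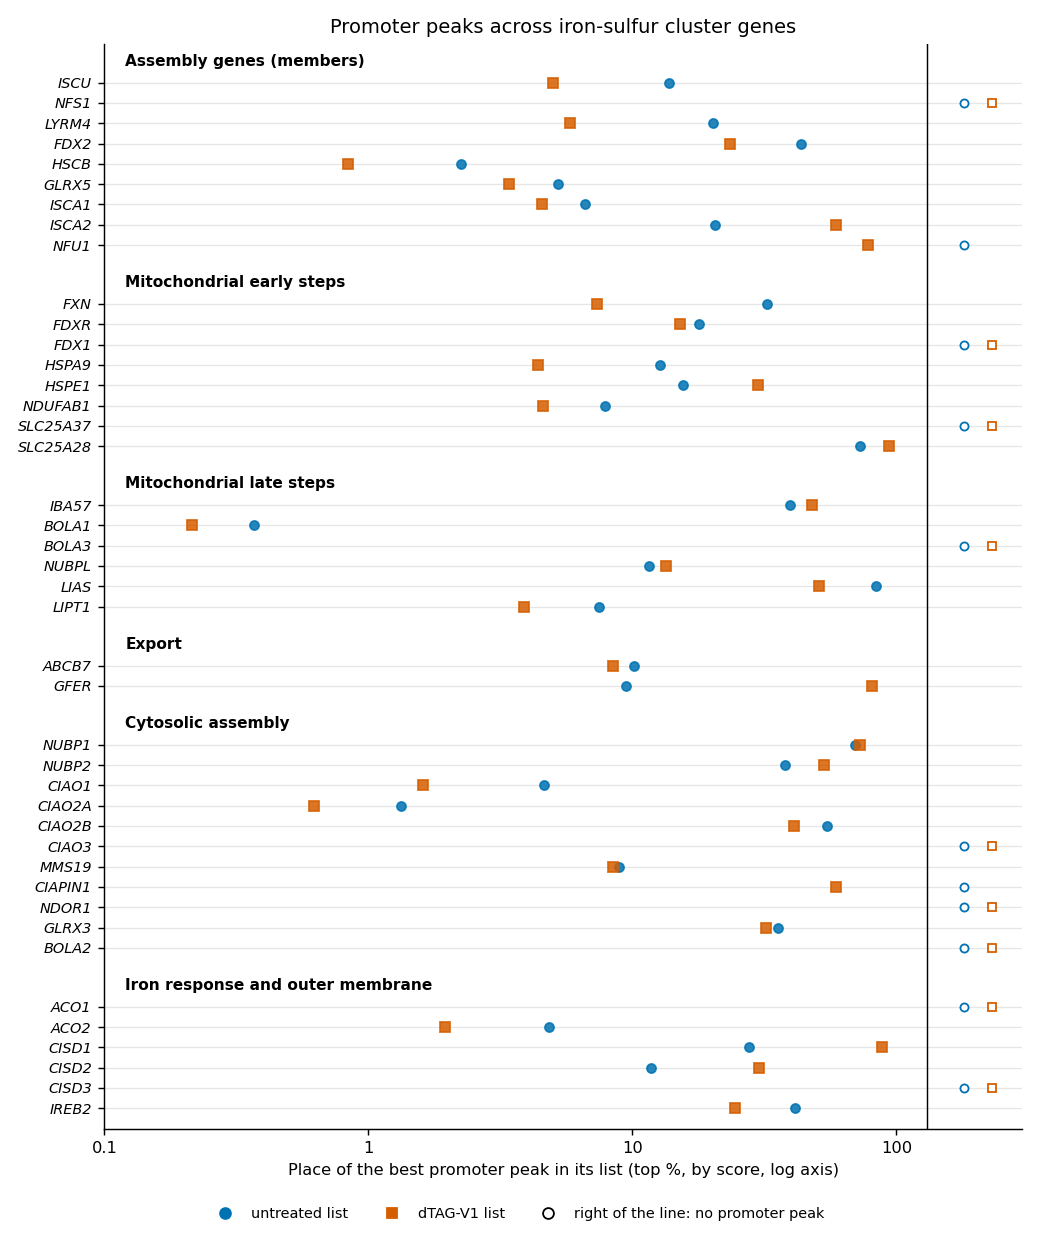
Place of the highest-ranking promoter peak of the 9 members and 33 other iron-sulfur cluster genes, as the top percent by score on a log axis, in the untreated (blue circles) and dTAG-V1 (orange squares) lists. Open symbols right of the line mark no promoter peak; 8 of the 33 genes and NFS1 have none in either list.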

How the data were processed

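ZNF143 ChIP-seq peak lists of 4 untreated and 4 dTAG-V1 samples were analysed. The 6 CTCF samples were not analysed here. Per the study's methods, the authors mapped reads to hg38 with bwa mem, kept uniquely mapped proper pairs, removed duplicates with Picard and called narrow peaks with MACS2. No input control is named for the HEK293T call. The methods describe a selection of peaks by replicate that differs between the groups, which could not be checked in the lists. Peak names in the untreated list refer to DMSO, and the labels were followed.

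In the deposited lists the score is an integer written from the q-value. The authors' fold enrichment is a ratio of summit signal over local background, and the deposited −log10 q-value comes from the same call. All depend on depth, which is unknown.

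Peaks were assigned to GENCODE release 44 TSSs with Python 3.11.15, numpy 2.4.6 and pandas 2.3.3. No list had a chromosome absent from the reference or a peak beyond its end. Matrices were learned within 50 bp of summits on odd-numbered autosomes, SBS1 and SBS2 from the untreated and CTCF from the dTAG-V1 list. This form of learning was chosen after whole peaks gave a GC-rich SBS1 matrix, by the letters and by how hits centred on summits of other chromosomes. As a check of the scan, sites drawn from the same matrices were planted in random DNA of the base composition of the genome. There 97.6% to 99.8% of planted sites were found and 0.7% to 1.1% of regions without a site had a hit. Promoter sequence was not simulated, so these shares are not error rates for the promoter regions. Members and lists were chosen with earlier results of these data known. Named genes were the 9 members, genes whose windows held member peak centres, and, of the 33 others, the 3 with the highest ranks in each list and those with peaks in 1 list or none. GFER and IREB2, and the neighbours ROMO1, RBM39 and AAK1, fall outside this rule and were named after their values were seen. No test was made.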

Additional observations from a re-analysis of the deposited data

How the results depend on the processing

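Of 35 values recomputed under other settings, 29 held and 6 moved, where a value that held could still change by a small count, as from 7 to 5. At a hit p of 5e-05, 7 of the 8 member promoter regions had an SBS hit, counted as held, beside 61.7% of all promoter regions. The 6 of 8 member promoter regions with an SBS hit became 3 at a hit p of 1e-06 (17.8% of all promoter regions) and 1 with a written consensus (9.65%). The single region with a CTCF hit became 5 at a hit p of 5e-05 (41.8% of all), and 0 at 1e-06 (9.67%), 0 within 100 bp of a summit (13.9%) and 0 with a written consensus (5.69%). The counts of members with promoter peaks held, with ISCU lost at a window of 1 kb. With 50% overlap of each peak, 5 of the 7 untreated member peaks were found in the dTAG-V1 list (67.9% of all untreated promoter peaks), and with summits within 100 bp 6 were (63.1%). Matrices learned from whole peaks, an alternative added after seeing the data, gave 7 regions with an SBS hit (42.4% of all) and 1 with a CTCF hit (20.2%).

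No paired analysis was possible because the lists give pooled values. Leaving out single replicates was not run, as the lists are pooled. Unknown depth limits what an absent peak means: NFS1 in both lists and NFU1 in the untreated list had no peak called, which is not a measurement of no signal.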
